A study of Mus musculus with 2 samples.

Results

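The hairpins described here are the annotated mouse miRNA genes named Mir6896 to Mir7094, chosen by the number in the name alone, with any letter or copy suffix. They were 201 of the 2202 miRNA genes counted in each library, or 9.13%. Small RNA was sequenced from heart tissue of adult male mice of strain 5xFAD/CAST, aged 8 to 10 months, in 2 libraries labelled as replicates 1 and 2 of a single group. 5xFAD mice carry human transgenes with familial Alzheimer mutations and are used to model brain amyloid, and CAST is a wild-derived inbred strain. No other genotype, treatment or age was measured, so the design gives levels and the difference between the libraries, not a comparison of conditions. The labels call the libraries biological replicates. The replicates carry different biosample entries but 1 donor entry, so whether they come from separate animals is unclear and their spread may be technical. The heart muscle hairpins Mir208a, with 15109 and 7513 counts in replicates 1 and 2, and Mir499, with 10625 and 29787, were present in both libraries. Mir208a was higher in replicate 1 and Mir499 in replicate 2. Other muscle hairpins had few counts: Mir1a-1 had 9 and 5, Mir133a-2 had 10 and 14, Mir133b had 15 and 26, and Mir206 had 58 and 59. The cause of these differences was not tested.

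Most miRNA hairpins are cut out of longer transcripts by the nuclease Drosha and then trimmed by Dicer. Mirtrons skip Drosha: a short intron is spliced out, the lariat is opened, and the intron itself folds into a hairpin that Dicer can cut. In a tailed mirtron only a single end of the hairpin is a splice site, and the rest of the intron hangs off the other end as a tail that must be removed. Mirtron miRNAs are known for low levels, and their arms carry the marks of intron ends, with a pyrimidine-rich 3′ arm that finishes at the acceptor dinucleotide of the intron.

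The label of these hairpins calls them rich in mirtrons, and this was checked against GENCODE M21 introns on the same strand, with an end counted as matching within 5 bases. The check compares annotations and uses no reads, so it does not show how the hairpins are processed. Of the 201 hairpins, 192 (95.5%) had at least 1 end at an intron end. The usual form was the tailed one: 173 (86.1%) had only the 3′ end at the 3′ end of an intron. A hairpin that spans a whole intron was found for 15 (7.46%). The remaining hairpins comprised 4 with only the 5′ end at an intron end, 8 that overlapped an exon and 1 inside an intron. The match was exact to the base at the 3′ end for 187 hairpins (93.0%), and the same number, 187, ended in the letters AG, 158 in CAG and 27 in TAG. Only 7.40% of the 2001 other hairpins of the table ended in AG, 1.55% had only the 3′ end at an intron end and 8 of them spanned an intron. The 173 hairpins were 84.8% of the 204 in the table with only the 3′ end at an intron end.

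**Figure D1:**
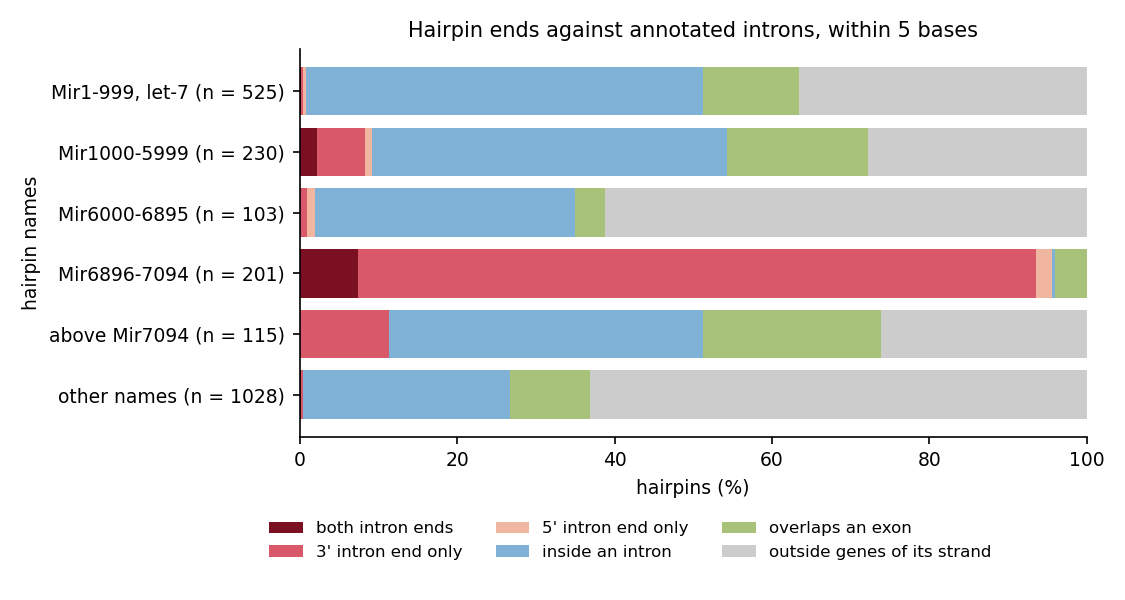
Share of hairpins in each name group (y axis, n in brackets) by where their ends lie against annotated introns of the same strand (x axis, percent of hairpins, ends matched within 5 bases). In Mir6896 to Mir7094, 86.1% had only the 3′ end at an intron end and 7.46% both ends.

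The hairpins below are shown in DNA letters, 5′ to 3′, to let the intron ends be read. They were taken from the GENCODE M21 transcripts on mm10. Capitals mark the AG at the 3′ end of the intron and, where the hairpin spans the intron, the GT at its 5′ end.
Mir7068, in Cherp, chr8:72470016-72470089, minus strand: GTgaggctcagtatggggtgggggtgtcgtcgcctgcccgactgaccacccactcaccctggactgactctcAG
Mir7018, in Hspg2, chr4:137538286-137538370, plus strand: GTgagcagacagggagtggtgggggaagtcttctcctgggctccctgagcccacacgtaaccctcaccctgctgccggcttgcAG
Mir6929, in Ptges3l, chr11:101419187-101419253, minus strand: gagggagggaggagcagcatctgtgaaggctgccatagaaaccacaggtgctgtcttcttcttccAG
Mir6990, in Esrra, chr19:6914196-6914286, minus strand: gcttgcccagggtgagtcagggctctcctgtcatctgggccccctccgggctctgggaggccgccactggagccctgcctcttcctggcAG
Mir7068 and Mir7018 are whole introns of 74 and 85 bases. Mir6929 is the end of an intron of 488 bases and starts 421 bases into it, and Mir6990 starts 5776 bases into an intron of 5867 bases.

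Mature arms from RefSeq (GRCm38.p6) were matched for 185 of the 201 hairpins, 354 arms in all. The 3′ arms of 12 of the 14 most counted hairpins, all but Mir6954 and Mir6971, are shown with the seed, bases 2 to 8, in capitals, since the seed sets which messages a miRNA can pair with and the last bases show the splice acceptor.
miR-6929-3p: cAGGUGCUgucuucuucuuccag
miR-7083-3p: uCUGCUCUccuggaccccag
miR-6990-3p: aGCCCUGCcucuuccuggcag
miR-7019-3p: uCACCUUGgccgccucucugcag
miR-7052-3p: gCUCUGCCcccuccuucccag
miR-6900-3p: uGGUGAUGggcucucuuguag
miR-6934-3p: aCCUCUGCuccugccccaccag
miR-7031-3p: aACCCUCUugcccucuccuag
miR-7068-3p: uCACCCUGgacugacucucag
miR-7018-3p: uCACCCUGcugccggcuugcag
miR-7051-3p: uGAGCCACugauuccugugugc
miR-6966-3p: uGCUGUGUgcuuccucugcag
All of these but miR-7051-3p end in the acceptor AG, and miR-7068-3p and miR-7018-3p share a seed. These sequences fit no single miRNA family: the 353 differently named arms held 325 seeds, 24 of them shared, and no seed was in more than 3 arms.

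Of the 177 matched 3′ arms, 137 (77.4%) ended in AG, against 74 of 670 (11.0%) among the other hairpins of the table. In 131 of the 177 the arm ends at the 3′ end of the hairpin. The AG ends are therefore not independent of the intron-end match above. The median 3′ arm was 72.2% pyrimidine (C and U), against 52.3% elsewhere. The median 5′ arm was 43.5% G, against 27.3% elsewhere. The 5′ arm began 5 bases inside the annotated hairpin in 138 of 177 cases and at its first base in 24. The 5′ arms below begin at the GU of a whole-intron hairpin, with the seed in capitals.
miR-7068-5p: gUGAGGCUcaguauggggugg
miR-7018-5p: gUGAGCAGacagggaguggugggg
The hairpins were also short, with a median of 66 bases (range 52 to 137) against 89 over all hairpins of the table, and GC-rich, with a median GC content of 57.1% against 50.8%. Short hairpins were not particular to the range. Hairpins above Mir7094 had medians of 63 bases and 53.6% GC. Hairpins outside the range with only the 3′ end at an intron end had 64 bases and 55% GC, and those spanning an intron 85 bases and 60.6% GC.

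Together the 201 hairpins held very little of the library. They had 485 of 3889280 sense counts in replicate 1 and 467 of 5058613 in replicate 2, where a sense count is a read on the strand of the hairpin. These shares were 0.0125% (95% Clopper-Pearson interval 0.0114 to 0.0136) and 0.00923% (0.00841 to 0.0101), a mean of 0.0109% ± 0.00229 (SD, n = 2). The intervals cover counting error only and do not overlap, with the lower share in the deeper library. The opposite strand of the same hairpins, counted in the same libraries, had 0 and 3 counts, so nearly every read at these loci lay on the transcribed strand of the host gene. Reads aligned to several places, 42.3% and 46.8% of all reads, were given to no gene. Only 4 of the 201 hairpins share a stretch of 20 bases with another hairpin of the table: Mir6970 with 1 count in all, and Mir7065, Mir7094-1 and Mir7094-2 with 0.

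Low counts were spread over many hairpins. At least 1 sense count was found for 128 (63.7%), against 32.3% of all 2202 hairpins and 63.0% of the 525 classical names Mir1 to Mir999 with let-7. The classical names include copies such as Mir467a-1 and Mir467a-2, each with 0 counts. Reads aligned to several places were given to no gene, and the effect on the classical shares was not tested. Among hairpins with a count, the median sum over both libraries was 3 for these hairpins and 348 for the classical ones. A sum of at least 10 counts was reached by 26 (12.9%), against a background of 18.7%. At least 10 counts in both libraries were reached by 11 (5.47%), against 14.8% of all hairpins and 48.4% of the classical names. By a count in either library, a hairpin of this range was thus about as often seen as a classical one, with far fewer reads. At least 1 count in both libraries was less frequent, at 72 (35.8%) against 57.7% of the classical names and 24.4% of all hairpins.

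**Figure D2:**
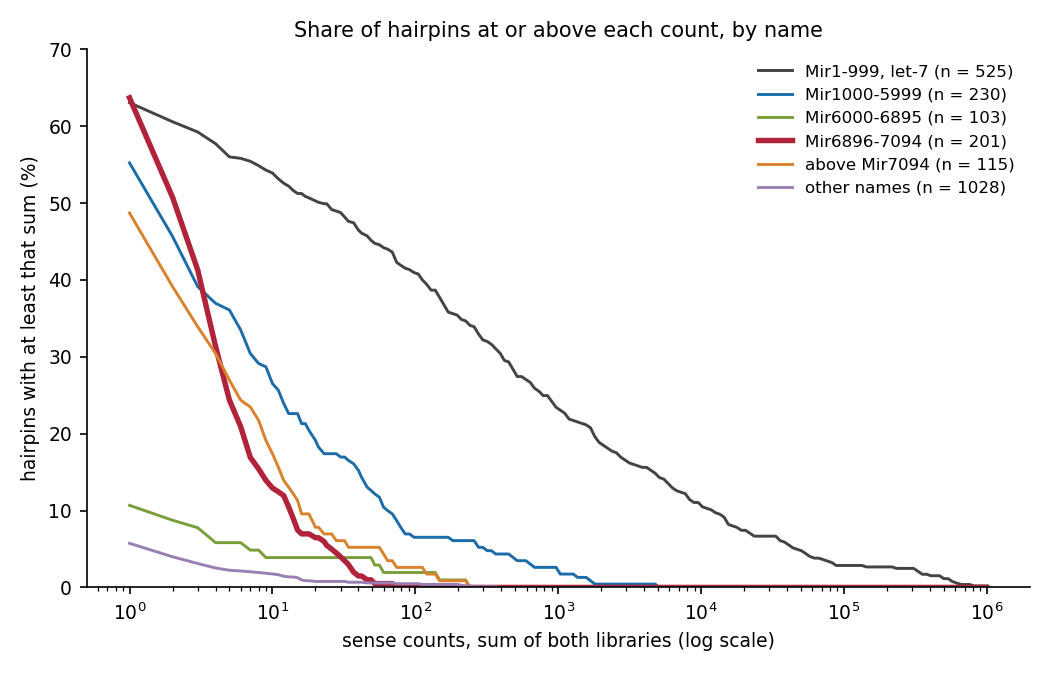
Percent of hairpins (y axis) whose sense counts summed over both libraries reach at least the value on the x axis (log scale), by name group. The Mir6896 to Mir7094 curve starts at 63.7% for 1 count, beside 63.0% for Mir1 to Mir999 with let-7, and falls to 12.9% at 10 counts, with its highest hairpin at 70.

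The other hairpins of high number differed in how many were seen. Of 103 hairpins Mir6000 to Mir6895, 10.7% had a count, and of 115 above Mir7094, 48.7%. Of the 1028 with other names 5.74% had a count. The share of sense counts was higher in replicate 1 for several low groups: 1.35 times for Mir6896 to Mir7094, 1.30 times above Mir7094, 1.32 times for other names and 1.15 times for Mir6000 to Mir6895, while it was 0.938 times for Mir1000 to Mir5999. The part of library make-up in this was not tested.

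Of the 201 hairpins, 73 had 0 counts in both libraries. A count of 0 allows up to 3 counts (a one-sided 95% limit, unlike the two-sided intervals given elsewhere), or 0.771 CPM in replicate 1 and 0.593 CPM in replicate 2 (CPM, the sense count scaled by the sense total of its library), for counting error only. A further 102 had a sum of 1 to 9. Both libraries held 72 hairpins, replicate 1 alone 35, with at most 8 counts, and replicate 2 alone 21, with at most 5. The 26 hairpins with a sum of at least 10 carried 65.8% of the 952 counts, and the 10 highest 40.5%. Across the 201 hairpins the counts of the libraries correlated with Pearson r = 0.804 and Spearman rho = 0.591, a description over hairpins that share the libraries and are mostly near 0.

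**Figure D3:**
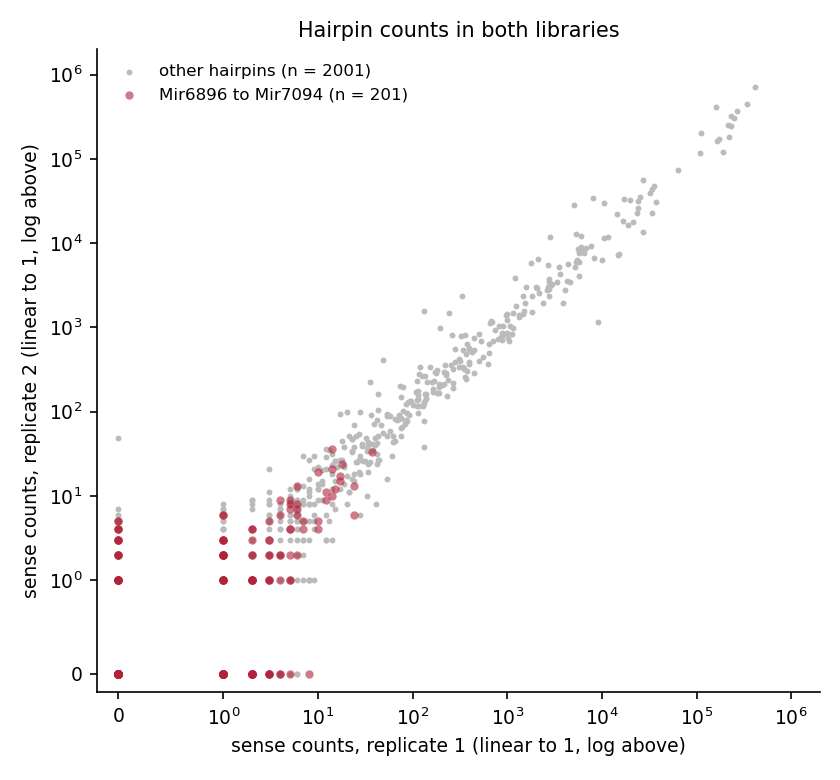
Sense counts of each hairpin in replicate 1 (x axis) and replicate 2 (y axis), linear to 1 and log above, for 201 hairpins Mir6896 to Mir7094 (red) and 2001 others (grey). The red points lie at the low end, up to 37 and 36 counts.

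Mir6929 was the most counted, with 37 counts in replicate 1 and 33 in replicate 2 (9.51 and 6.52 CPM, mean 8.02 ± 2.11, SD, n = 2). Its exact 95% Poisson intervals, 26.1 to 51.0 and 22.7 to 46.3 counts, overlap. The hairpin lies at the 3′ end of an intron of Ptges3l. The counts cover the whole hairpin and do not tell its arms apart, nor a mature miRNA from another piece of the intron end.

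The other hairpins with at least 10 counts in both libraries lay below it in replicate 1. Mir6990, in Esrra, a nuclear receptor that controls mitochondrial genes, had 18 and 24 counts (4.63 and 4.74 CPM). Mir7019 (chr4:138316132-138316200), in Pink1, the kinase that marks damaged mitochondria for removal, had 24 and 13 counts (6.17 and 2.57 CPM). Mir6900 (chr1:92464483-92464542), in Ndufa10, a subunit of respiratory complex I, had 17 in each library (4.37 and 3.36 CPM). Mir7051 (chr7:43457497-43457569) lies in Etfb, the beta subunit of the flavoprotein that passes electrons from fatty acid oxidation to the respiratory chain. It had 15 and 12 counts (3.86 and 2.37 CPM). These 4 hairpins are placed together by the roles of their hosts, not by rank, and an excess of such hosts was not tested. They have only the 3′ end at an intron end and start 859 to 5776 bases into their introns. No host transcript was measured here.

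A further 5 with at least 10 counts in both libraries also have only the 3′ end at an intron end. Mir7083 (chr9:21809941-21810000), in Dock6, an activator of small GTPases, had 14 and 36 counts (3.60 and 7.12 CPM). Mir7052 (chr7:44470347-44470411), in the deubiquitinase gene Josd2, had 14 and 21 counts. Mir6934 (chr11:119154076-119154137), in Tbc1d16, a regulator of Rab GTPases, had 17 and 15. Replicate 2 was the higher for Mir7083 and Mir7052, by count, and replicate 1 for Mir6934. Mir6966 (chr17:25780808-25780879), in Narfl, a factor of cytosolic iron-sulfur protein assembly, had 14 and 10 counts. Mir6954 (chr15:76433214-76433273), in Mroh1, had 12 and 11. Of these 5 hairpins only Mir7083 had intervals that did not overlap, 7.65 to 23.5 and 25.2 to 49.8 counts. They are intervals on raw counts, not scaled for depth, and replicate 2 was the deeper library. They therefore do not compare levels between the libraries.

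Whole-intron hairpins were few, with a highest sum of 29 counts over both libraries. Mir7068, in Cherp, a nuclear protein linked to splicing and calcium release, was the highest with 10 and 19 counts (2.57 and 3.76 CPM). Mir7018, in Hspg2, which encodes the basement membrane proteoglycan perlecan, had 6 and 13. Mir6958, in Dennd6b, had 5 and 9 counts. Mir6944, in Dbn1, the actin-binding protein drebrin, had 7 and 4. A count was found for 8 of the 15. Of all 15, 13 begin with GT, the first letters of most introns, and 15 end with AG. The hairpins at 0 included Mir6923, in the embryonic myosin gene Myh3.

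Shape and level can be set side by side. A sum of at least 10 was reached by 4 of 15 whole-intron hairpins (26.7%) and by 21 of 173 with only the 3′ end at an intron end (12.1%). Among the other hairpins of the table the same shapes reached it in 7 of 8 (87.5%) and 9 of 31 (29.0%). The remaining hairpin of the 26 was Mir7036b, the single one inside an intron, in Add1, with 7 and 5 counts. The 4 hairpins with only the 5′ end at an intron end had 3 counts in all, and the 8 that overlap an exon had 13.

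Tail length is used here for an annotated distance, not a measured tail, and it varied widely. In the 173 hairpins the 5′ end lay 7 to 36205 bases from the 5′ end of the shortest annotated intron with that acceptor, with a median of 505 and quartiles of 86 and 1410. Of 44 with a distance under 100 bases, 33 (75.0%) had a count. The figure was 43 of 72 (59.7%) from 100 to under 1000 bases and 36 of 57 (63.2%) at 1000 or more. A sum of at least 10 was reached by 11.4%, 12.5% and 12.3%, so the counted hairpins were spread over all tail lengths. Mir6899, in Klf7, had the longest tail, 36205 bases, and 3 counts in all.

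**Figure D4:**
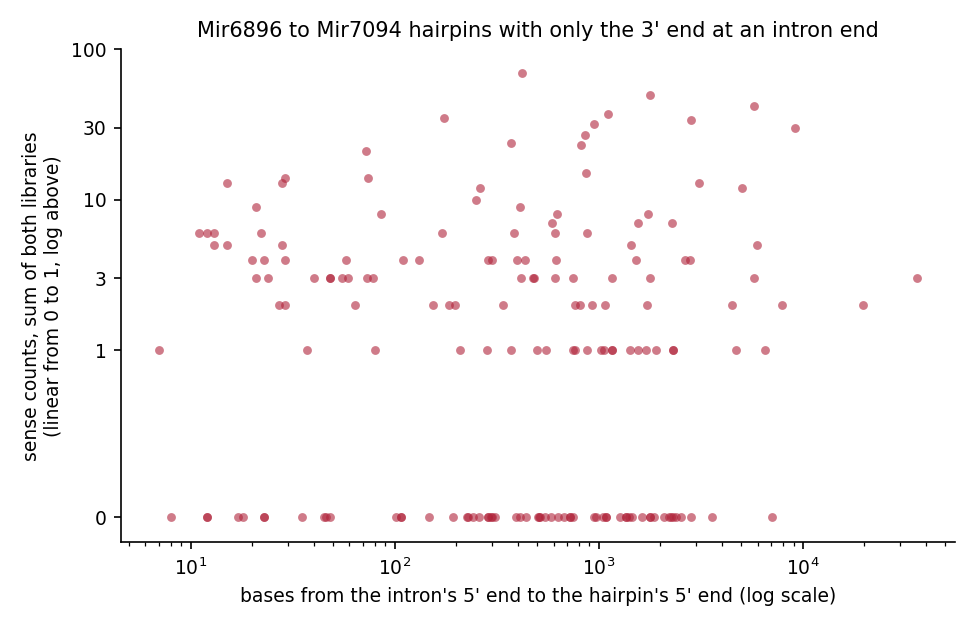
Sense counts summed over both libraries (y axis, linear to 1 and log above) against the bases from the 5′ end of the intron to the 5′ end of the hairpin (x axis, log scale), for 173 Mir6896 to Mir7094 hairpins with only the 3′ end at an intron end. Hairpins with at least 10 counts appear at short and long distances alike.

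The remaining hairpins with a sum of at least 10 were close to that minimum. Mir6971, in Skiv2l, the helicase of an RNA decay complex, had 12 and 9 counts. Its neighbour Mir6970, in another intron of the same gene, had 1 and 0. Mir7035, in the Ras regulator Rasa4, had 10 and 5 counts, and Mir6968, in the Polycomb-linked gene Phf1, had 10 and 4. The other 7 with only the 3′ end at an intron end lay at 4 to 9 counts in each library. They were Mir6985 in the cofilin phosphatase gene Ssh3, Mir6956 in the actin-binding gene Triobp, Mir7004 in Atp9a, Mir7069 in Farsa, a tRNA synthetase subunit gene, Mir6959 in Sbf1, Mir7013 in the lipid kinase gene Pi4kb, and Mir6994 in Patl1, an mRNA decay factor gene. Just under the minimum, with sums of 7 to 9, were Mir6912, Mir6943, Mir6975, Mir7036, Mir7073, Mir6907, Mir7010 and Mir7049. Mir6912 and Mir6943 each had 5 and 4 counts. Mir6975, in the helicase gene Ddx39b, had 8 and 0 counts, the widest gap among these 8. Mir7010, in Gucy1a1, a subunit of the nitric oxide receptor of muscle and vessels, had 1 and 6.

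Of the 26 hairpins with a sum of at least 10, 3 differed between the libraries. A two-sided exact binomial test on TMM-scaled counts, Benjamini-Hochberg adjusted over all 412 hairpins with a sum of at least 10, called 3 of the 26 tested, against 45.4% of all tested hairpins. In the range of sums that these hairpins cover, 10 to 70 counts, 23 of 156 were called, or 14.7%, so the 3 of 26 lay near that background. With other settings the count was 2 of 26 with total counts against 48.3% of all tested, 3 of 26 with DESeq2 size factors against 46.1%, 2 of 26 in the column that ignores strand against 45%, 2 of 128 with no low-count filter against 25.6%, and 1 of 2 with sums of at least 50 against 62.1%. With no low-count filter, Mir7031 was the single one of the 26 called, and the other call was Mir6975, with 8 and 0 counts (adjusted p = 0.00838, exact binomial test). The test covers counting error and compares these libraries only. The median log2 ratio of replicate 2 over replicate 1 was -0.26 over the 26, with 15 higher in replicate 1 and 11 in replicate 2, against -0.0095 over all tested hairpins.

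Mir7031 (chr5:121819209-121819273), in Sh2b3, an adaptor that restrains cytokine signals in blood cells, stood farthest apart. It had 24 counts in replicate 1 and 6 in replicate 2 (6.17 and 1.19 CPM). It was 4.78-fold higher in replicate 1 (95% exact interval 1.91 to 14.3, adjusted p = 0.000444, exact binomial test). Mir7083 was 2.15-fold higher in replicate 2 (1.13 to 4.32, adjusted p = 0.0337, exact binomial test), and this call was lost with total-count scaling (adjusted p = 0.0631) and with no low-count filter (0.0569). Mir7019 was 2.21-fold higher in replicate 1 (1.08 to 4.72, adjusted p = 0.0456, exact binomial test). That call was lost with no low-count filter (adjusted p = 0.0758) and in the column that ignores strand (0.0663). For the other 23 the log2 ratio ran from -1.58 for Mir6968 to 0.91 for Mir7069, with intervals that include no change.

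**Figure D5:**
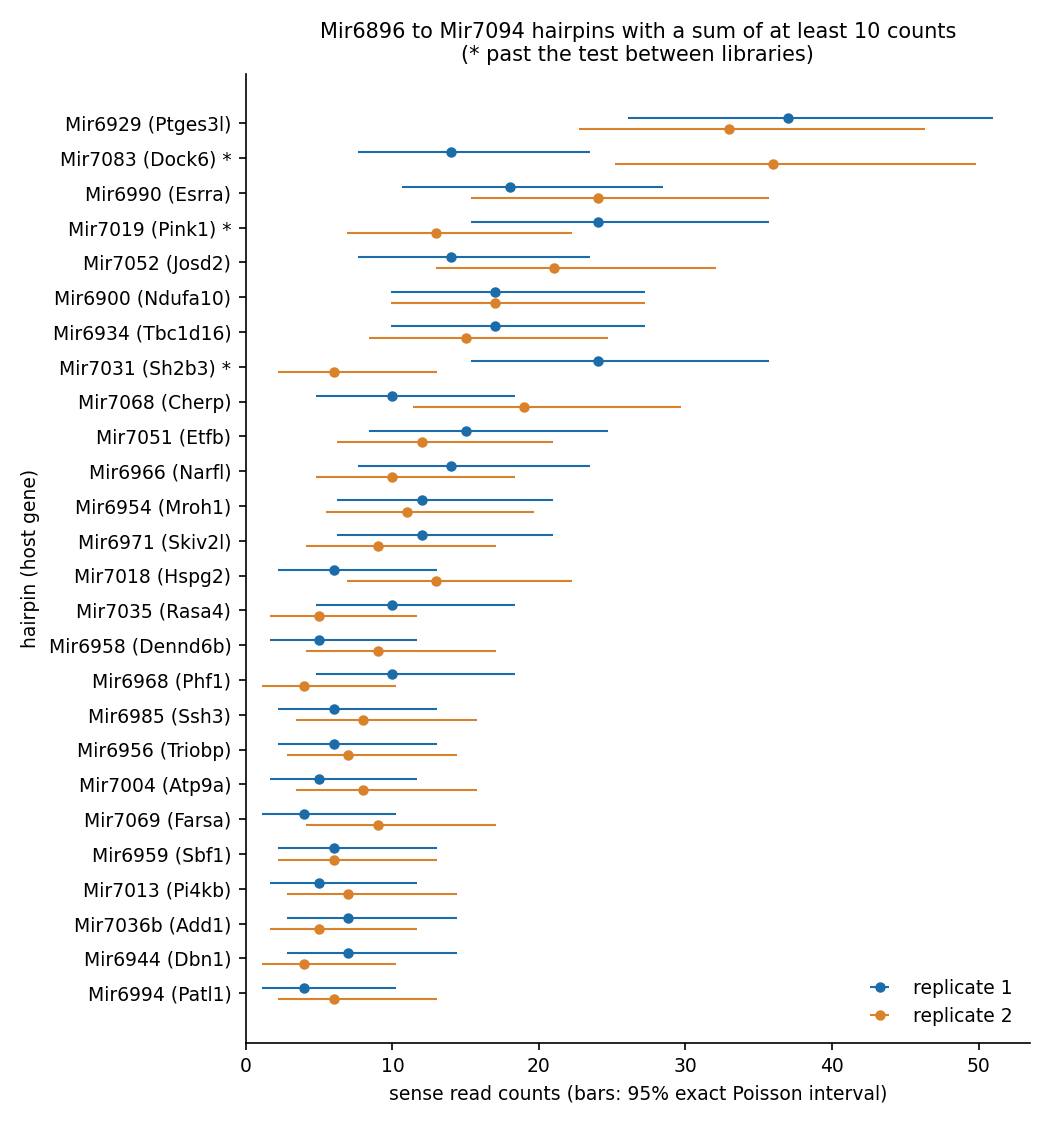
Sense counts (x axis) of the 26 Mir6896 to Mir7094 hairpins with a sum of at least 10 counts, host gene in brackets, in replicate 1 (blue) and replicate 2 (orange), with exact 95% Poisson intervals. Counts and intervals are not scaled for library depth. An asterisk marks the 3 past the test, Mir7083, Mir7019 and Mir7031; the highest, Mir6929, had 37 and 33 counts.

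Of 7 hairpins with older names listed as mirtrons, 4 had higher summed counts than any of these hairpins. Mir3102, in Arhgef17, had 1052 and 693 counts, Mir1981, in Marc2, 352 and 321, and Mir877, in Abcf1, 164 and 184. Mir702, in Plod3, had 61 and 30 counts. The others, Mir1982, Mir5107 and Mir1224, had sums of 12, 11 and 10, within the range of the Mir6896 to Mir7094 hairpins. By the same check of hairpin ends, Mir702 and Mir5107 overlap an exon and the other 5 span an intron. The hairpins of the range were hosted by 196 genes, 5 of which held a pair, among them Skiv2l, Srebf1 with Mir6921 and Mir6922 (4 counts in all), Ankrd52 with Mir6914 and Mir6915 (8 counts) and Cmip with Mir7077 and Mir7078 (0 counts).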

How the data were processed

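The authors deposited 1 table of raw read counts per library for 2202 miRNA genes, on mm10 with GENCODE M21, per the files deposited beside them. The sources used here do not name the aligner or read filters. Each table has 4 summary lines, left out of library sizes, and 3 count columns, the first ignoring strand. The next column, with the larger total, was taken as sense (3889280 and 5058613 counts, 35.9% and 35.6% of reads). Names, introns and hairpin sequences came from GENCODE M21, which matched 2202 identifiers. A hairpin end was called an intron end within 5 bases of an annotated intron of a gene that is not itself a small RNA.

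Libraries were compared by a two-sided exact binomial test at TMM effective sizes (edgeR 4.0.16), Benjamini-Hochberg adjusted at 0.05 over genes whose counts summed to at least 10. The test was also run on simulated data that held counting error only, which cannot show its behaviour under further spread between libraries. Ratios have no pseudocount. The quasi-likelihood test needs another group. Alternatives were total counts, DESeq2 1.42.0 size factors, other filters, strand columns and tolerances. The text names every hairpin of the range with a sum of at least 10, those with a sum of 7 to 9, and 7 hairpins with older names listed as mirtrons. The hairpins and lists were chosen with earlier results of these data known.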

Additional observations from a re-analysis of the deposited data

How the results depend on the processing

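With at least 1 count in both libraries, 72 hairpins were detected in place of 11, and 26 by a sum of 10 or more. The column that ignores strand gave 11, and a single library 12 to 15. Their mean share of 0.0109% was 0.0142% in the column that ignores strand, 0.00388% of all reads, and 0.00923% to 0.0125% in a single library. The 3 calls between libraries became 1 (Mir7083) when sums had to reach 50 counts, where only 2 of the hairpins are tested, 2 with total counts (Mir7031 and Mir7019), 2 in the column that ignores strand (Mir7031 and Mir7083) and 3 with DESeq2 size factors. With no low-count filter 2 were called, Mir7031 and Mir6975, whose sum is under 10, so 2 of the 3 calls were lost. In the column that ignores strand the log2 ratio of Mir6956 was 0.013 in place of -0.036. Its counts were 6 and 7 in both columns, and only the library sizes used for scaling differed. The whole-intron hairpins were 14 to 18 at tolerances of 0, 2 and 10 bases, against 15. No paired analysis was possible because the labels give a single group. Depth limits these results, since only 26 of the 201 hairpins had a sum of 10 or more and a single count is worth 0.257 CPM in the shallower library and 0.198 CPM in the deeper.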

Other observations

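Outside the number range, hairpins with only the 3′ end at an intron end included some with more counts than any of the 173 inside it. Mir382, in the long non-coding RNA gene Mirg, had 219 and 360 counts. Mir3100, in Dmpk, the myotonic dystrophy kinase gene of heart and skeletal muscle, had 42 in each library. Mir3064, in the RNA helicase gene Ddx5, had 25 and 52. Of the 31 such hairpins, 17 had a count, against 112 of the 173. No difference between these groups was tested.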
